A study of Mus musculus with 24 samples.

Results

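The insulin-like growth factor (IGF) system was followed here through 10 genes, chosen by name and looked up by their mouse Ensembl identifiers among the 39017 genes of the count files. They were the ligand genes Igf1 and Igf2, the receptor genes Igf1r and Igf2r, and the binding protein genes Igfbp2, Igfbp3, Igfbp4, Igfbp5, Igfbp6 and Igfbp7. Expression was measured by RNA-Seq in NIH 3T3, an immortalized mouse embryonic fibroblast line, with 3 libraries in each of 8 groups. All cells carried a pBabeNeo retroviral vector and were kept as G418-selected populations in medium with bovine calf serum. The groups expressed no protein (empty vector, EV), TAZ-CAMTA1, TAZ4SA, YAP-TFE3, YAP5SA, TFE3 or CAMTA1, each carrying a Flag tag. An additional empty vector group was labelled sub-confluent (EVsub). TAZ-CAMTA1 and YAP-TFE3 are the fusion proteins of epithelioid hemangioendothelioma, in which the TEAD-binding end of TAZ or YAP is joined to the C terminus of CAMTA1 or TFE3. TAZ4SA and YAP5SA are hyperactive forms of full-length TAZ and YAP, in which serines phosphorylated by the LATS kinases are replaced by alanine. CAMTA1 and EVsub cells were collected at sub-confluence and the other groups after 48 h of confluence, so EVsub served as the control of CAMTA1 and EV as that of the other proteins. The replicates were separate transductions of 1 cell line, so their spread does not cover other fibroblasts.

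IGF-I and IGF-II are secreted ligands of the tyrosine kinase IGF-1 receptor, which signals through insulin receptor substrates to the PI3K-AKT pathway. The IGF-2 receptor, also known as the cation-independent mannose 6-phosphate receptor, does not carry this signal and instead takes IGF-II, and enzymes tagged with mannose 6-phosphate, to the lysosome. IGF binding proteins hold the ligands outside the cell and can block them or present them to the receptor, until proteases such as pappalysins release the ligand. Fibroblasts secrete several of these proteins, and Igf2 is expressed from the paternal allele of an imprinted cluster that it shares with the noncoding RNA H19.

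Between 16471181 and 30132586 counts were available per library (median 22298975). Levels are given in CPM, counts per 1000000 of the library total scaled with TMM factors, and levels of different genes were compared only after division by the length of their merged exons (CPM per kb). The 10 fibroblast markers were detected in every group, with a summed level of 39199 to 44091 CPM in EV. It was 21176 to 26887 CPM with TAZ4SA and 28222 to 33349 CPM with YAP5SA. With each of these proteins 5 of the 10 were called lower, and 1 and 2 were called higher. The calls were 60% and 70% of the 10, beside 57.5% and 71.2% of all genes tested (26.4% and 34.9% lower). The sum was also below EV in the sub-confluent groups, at 23355 to 36833 CPM in EVsub and 19099 to 27727 CPM with CAMTA1. In EVsub against EV, 5 were called lower and 1 higher, beside 9.59% and 12.5% of all genes. The 6 epithelial markers summed to 1.15 CPM or less in every library, with Epcam, Krt18 and Krt19 at no more than 3 counts. The single one tested, Cdh1, was called higher with TAZ-CAMTA1 and YAP-TFE3 (log2 fold change 1.64 and 1.62). It was called lower with TAZ4SA and YAP5SA (log2 fold change -2.38 and -2.37). The 5 endothelial markers summed to 3.01 to 4.91 CPM in EV and 8.36 to 13.4 CPM with YAP-TFE3. There 3 of 4 tested were called higher, beside 10.6% of all genes. With TAZ4SA the sum was 9.10 to 16.3 CPM, and 3 were called higher and 1 lower. With YAP5SA it was 8.09 to 9.29 CPM, and 2 were called higher and 1 lower. Of all genes, 31.1% and 36.3% were called higher there, and 26.4% and 34.9% lower. With TAZ-CAMTA1 and TFE3 it was 4.97 to 5.73 and 5.99 to 6.96 CPM, with 1 and 2 higher, beside 12.5% and 2.35%. The 5 skeletal muscle markers summed to at most 0.211 CPM in EV and 9.37 CPM in any library. Myod1 and Ckm stayed at no more than 3 counts per library. Both tested ones (Des and Acta1) were called higher with TAZ-CAMTA1, TAZ4SA and YAP5SA. There 12.5%, 31.1% and 36.3% of all genes were called higher. In EVsub both were called higher as well, beside 12.5% of all genes, and with YAP-TFE3 1 was, beside 10.6%. The YAP/TAZ target Ccn1 was higher than in EV with TAZ-CAMTA1, TAZ4SA, YAP-TFE3 and YAP5SA (log2 fold change 2.53, 2.74, 1.73 and 5.25; edgeR quasi-likelihood test, Benjamini-Hochberg adjusted p under 0.05). The summed CPM of 5 haematopoietic genes was 3.10 to 4.38 in EV, 16.4 to 67.4 with TAZ4SA and 83.5 to 132 with YAP5SA. All 3 tested genes of that list were called higher than in EV with TAZ4SA and with YAP5SA. Of all genes, 31.1% and 36.3% were called higher in these comparisons. Ptprc, the pan-leukocyte marker of the same list, stayed at 0.176 CPM or lower in every library. The 5 adipocyte markers summed to 174 to 849 CPM in EV, 57.8 to 138 CPM in EVsub and 87.8 to 106 CPM with CAMTA1. Of the 3 tested, 2 were called higher with TAZ4SA, 1 lower with TAZ-CAMTA1, and 1 higher and 1 lower in EVsub. Of all genes, 31.1%, 8.98%, 12.5% and 9.59% were called in those directions. The part of these marker changes in the results was not tested. In bulk RNA, fewer expressing cells and less RNA per cell cannot be told apart.

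In confluent EV cells the binding protein Igfbp6 had the highest level per length of the 10 genes, at 89.0 ± 13.6 CPM per kb (SD, n = 3). It was followed by Igf2r at 41.0 ± 2.43, Igf2 at 32.2 ± 16.2, Igfbp7 at 23.8 ± 1.55 and Igf1r at 4.15 ± 0.308 CPM per kb. Igfbp4 at 1.61 ± 1.23, Igfbp5 at 1.28 ± 0.688 and Igf1 at 0.224 ± 0.106 CPM per kb were the lowest of the detected genes. The spread of Igf2 covers its neighbours in this order, and Igfbp4 and Igfbp5 changed places without EV replicate 2 (0.894 and 0.896 CPM per kb). Igfbp2 and Igfbp3 were near 0 in every group. Igfbp2 had 3 counts in all 24 libraries together and Igfbp3 had 6, never more than 1 per library. Since 3 counts correspond to between 0.0927 and 0.225 CPM depending on the library, levels up to that limit were not detectable, counting error alone considered. Both genes were under the required mean count of 5 and were not tested, which left 8 of the 10 genes among the 14361 tested.

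**Figure D1:**
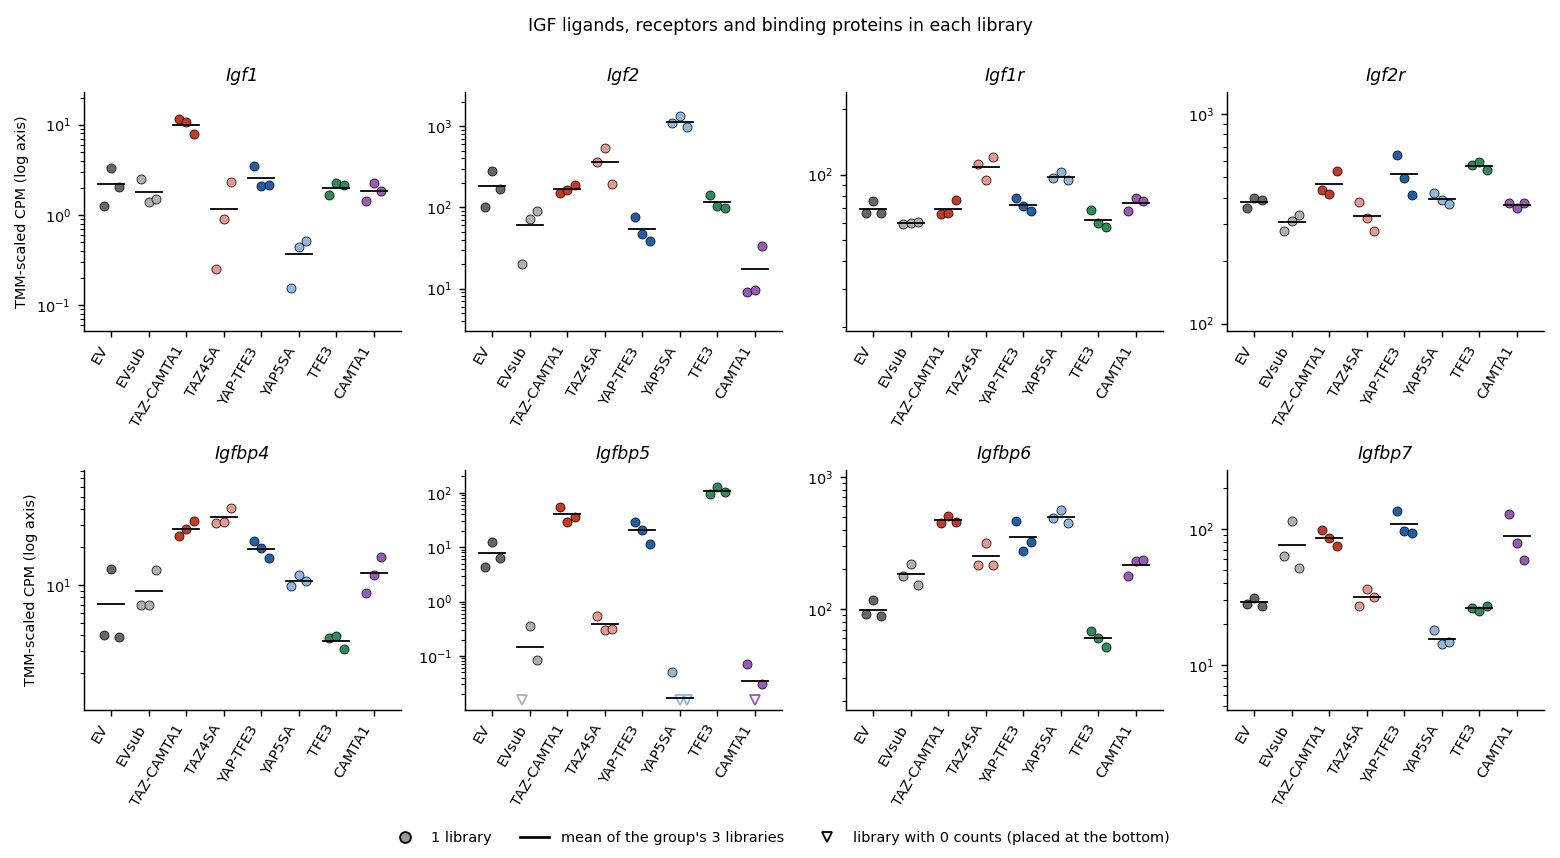
TMM-scaled CPM of the 8 tested genes on log axes, with 1 point per library, a line at the mean of the 3 libraries of a group and open triangles for libraries without a count. Igfbp5 spans from 0 counts in YAP5SA, EVsub and CAMTA1 libraries to 129.8 CPM in a TFE3 library, while Igf1r and Igf2r move by less than 2-fold between group means.

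Igf1 encodes the ligand best known as the mediator of growth hormone action and, in these cells, was a rare transcript. The gene lies on chromosome 10 from 87858265 to 87937042 on the plus strand (GRCm38, as for all positions here). Igf1 was at 1.27, 3.34 and 2.03 CPM in EV replicates 1 to 3 and at 11.6, 10.6 and 7.86 CPM with TAZ-CAMTA1. Every TAZ-CAMTA1 library was above every library of all other groups, and the rise over EV was 2.19 ± 0.41 on the log2 scale (SE, n = 3 and 3; edgeR, adjusted p = 0.00049). With YAP5SA it was at 0.154, 0.441 and 0.507 CPM, which rests on 3, 9 and 8 counts. All of these were below the EV libraries, and the fall was 2.59 ± 0.57 on the log2 scale (edgeR, log2 fold change -2.59, adjusted p = 0.00033). TAZ4SA libraries were spread from 0.248 through 0.899 to 2.29 CPM. They overlapped EV, with a log2 fold change of -0.89 ± 0.47 (edgeR, adjusted p = 0.11), and without TAZ4SA replicate 3 the difference became -2.06 (edgeR, adjusted p = 0.0017). YAP-TFE3 libraries, at 3.46, 2.08 and 2.16 CPM, did not pass the test against EV either (log2 fold change 0.21, 95% interval -0.68 to 1.09). The libraries of TFE3, EVsub and CAMTA1 lay between 1.39 and 2.50 CPM and overlapped EV and each other. Igf1os, an antisense gene, overlaps Igf1 on the other strand without sharing exons.

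Igf2 encodes the fetal ligand of the family, and its level differed most widely among the ligand and receptor genes, by 65.9-fold between the highest and lowest group mean. It is annotated on chromosome 7 from 142650766 to 142666816 on the minus strand. The EV libraries held 100.3, 284 and 169 CPM, and the YAP5SA libraries 1105, 1329 and 969.8 CPM. YAP5SA exceeded every library of the other groups and the rise over EV was 2.62 ± 0.50 on the log2 scale (edgeR, adjusted p = 8.02e-05). TAZ4SA libraries stood at 361, 545 and 195 CPM. The last of these fell within the EV range, and the difference of 0.99 ± 0.48 on the log2 scale did not pass the test (edgeR, adjusted p = 0.0822). It passed without EV replicate 2 (1.45, edgeR adjusted p = 0.0282) or without TAZ4SA replicate 3 (1.30, edgeR adjusted p = 0.0279).

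Igf2 moved the other way with YAP-TFE3, at 76.6, 46.6 and 38.9 CPM. These libraries lay below all EV libraries, and the log2 fold change was -1.77 ± 0.49 (edgeR, adjusted p = 0.0156), a call that was lost without EV replicate 2 (-1.32, edgeR adjusted p = 0.09) and without YAP-TFE3 replicate 2 or 3. In TAZ-CAMTA1 cells Igf2 was measured at 149, 166 and 189 CPM, inside the EV range (log2 fold change -0.14, 95% interval -1.12 to 0.85). Cell density went with Igf2 in the empty vector cells, where the EVsub libraries held 20.3, 71.1 and 90.0 CPM. All were below the EV libraries, with a log2 fold change of -1.61 ± 0.49 (edgeR, adjusted p = 0.0215), which did not pass without EV replicate 2 (-1.15, edgeR adjusted p = 0.117) or EVsub replicate 1 (-1.20, edgeR adjusted p = 0.101). CAMTA1 libraries had the lowest levels, 9.01, 9.51 and 33.1 CPM. The last of these exceeded EVsub replicate 1. The difference from EVsub was -1.80 ± 0.50 on the log2 scale (edgeR adjusted p = 0.0636, DESeq2 adjusted p = 0.0297). It passed without CAMTA1 replicate 3 (-2.71, edgeR adjusted p = 0.00819) or EVsub replicate 1 (-2.21, edgeR adjusted p = 0.0101). Without a filter on low counts it passed as well (-1.80, edgeR adjusted p = 1.09e-05). TFE3 libraries, at 143, 103 and 99.6 CPM, overlapped EV.

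Neighbours of Igf2 were measured beside it. H19 lies 72622 bases from Igf2 and is expressed from the maternal allele. It was at 9.37, 23.9 and 10.3 CPM in EV, at 83.9, 171 and 72.2 CPM with TAZ4SA and at 87.9, 174 and 163 CPM with YAP5SA. The libraries of both hyperactive proteins exceeded all EV libraries, and the rises were 2.91 ± 0.52 and 3.29 ± 0.53 on the log2 scale (edgeR, adjusted p = 6.89e-05 and 9.72e-06). EVsub libraries were lower, at 0.182, 5.38 and 1.56 CPM (log2 fold change -2.54 ± 0.58; edgeR, adjusted p = 0.00322). TAZ-CAMTA1 libraries, at 37.8, 39.3 and 35.8 CPM, were above all EV libraries without passing the test (log2 fold change 1.38 ± 0.50; edgeR, adjusted p = 0.0557), whereas Igf2 itself lay inside the EV range there. Among tested genes averaging 50 counts or more, H19 and Il17ra had the log2 CPM with the highest Pearson correlation to that of Igf2 over 24 libraries, which share the 8 groups (r = 0.919 and 0.917). Their Spearman rho was 0.906 and 0.937.

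Igf2os is annotated on the opposite strand and shares exonic bases with Igf2. Since the strand setting of the counting is not given in the sources used here, reads of both genes may not have been told apart, and Igf2os is reported as uncertain. It was at 2.74, 13.3 and 6.19 CPM in EV and at 65.8, 74.5 and 53.9 CPM with YAP5SA, a rise of 3.13 ± 0.38 on the log2 scale (edgeR, adjusted p = 1.76e-07). With YAP-TFE3 it was at 0.752, 0.870 and 0.806 CPM, below all EV libraries (log2 fold change -3.17 ± 0.46; edgeR, adjusted p = 3.7e-05). It also fell with TAZ-CAMTA1 (log2 fold change -1.98 ± 0.41; edgeR, adjusted p = 0.00133), where Igf2 did not pass the test. Ins2, which lies 11839 bases from Igf2, had 1 count in all libraries together.

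**Figure D2:**
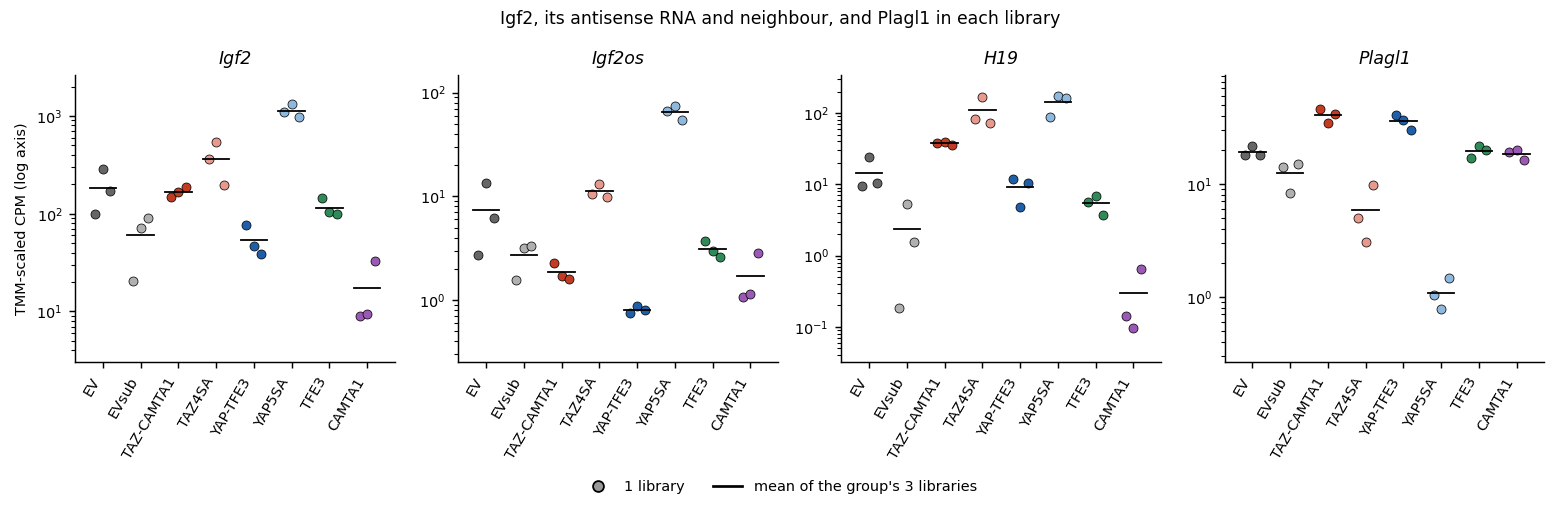
TMM-scaled CPM, on log axes, of Igf2, its antisense gene Igf2os, its neighbour H19 and the imprinted transcription factor gene Plagl1, with 1 point per library and a line at each group's mean. YAP5SA libraries are the highest for Igf2 (969.8 to 1329 CPM) and the lowest for Plagl1 (0.785 to 1.46 CPM), and Igf2os is lowest with YAP-TFE3.

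Both ligands passed the test in opposite directions with YAP5SA, and their ratio within libraries is given for all groups as a description. Igf2 exceeded Igf1 per length by 137, 147 and 144 times in EV replicates 1 to 3, a narrow range although each ligand varied by more than 2-fold among these libraries. The ratio was 22.2 to 41.6 with TAZ-CAMTA1 and 31.1 to 38.9 with YAP-TFE3, below every EV library. With YAP5SA it was 3313 to 12420.2, and with TAZ4SA it reached from 147 to 2522. CAMTA1 libraries had ratios of 7.36 to 31.4 and EVsub libraries of 14.0 to 105, while TFE3 libraries, at 79.8 to 150.2, overlapped EV. The ratios of YAP5SA and TAZ4SA rest on few Igf1 counts.

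Igf1r, the gene of the signalling receptor, differed little between groups, by 1.81-fold from the lowest to the highest mean. The gene lies on chromosome 7 from 67952827 to 68233668 on the plus strand. EV libraries held 66.9, 75.6 and 66.4 CPM, TAZ4SA libraries 111, 94.0 and 119.8 CPM, and YAP5SA libraries 96.3, 102 and 94.4 CPM. These hyperactive forms were the groups in which every library exceeded all libraries of every other group. Igf1r rose over EV by 0.64 ± 0.10 with TAZ4SA (edgeR, adjusted p = 1.36e-05) and by 0.49 ± 0.10 with YAP5SA (edgeR, adjusted p = 0.00017) on the log2 scale. The YAP5SA difference depended on the TMM factors, since it was 0.11 without them (edgeR, adjusted p = 0.42), a scaling that put the median of all genes at -0.36 for YAP5SA and at -0.13 for TAZ4SA. The fusion proteins left Igf1r within narrow bounds of EV, with 95% intervals of -0.21 to 0.21 for TAZ-CAMTA1 and -0.15 to 0.27 for YAP-TFE3 on the log2 scale. CAMTA1 libraries (68.4, 78.3 and 75.6 CPM) were above all EVsub libraries (59.5, 59.9 and 60.7 CPM), though the difference of 0.30 ± 0.10 did not pass the adjusted test (edgeR, adjusted p = 0.114).

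Igf2r, the gene of the lysosomal sorting receptor, was called higher than EV with TFE3 and YAP-TFE3. It is annotated on chromosome 17 from 12682406 to 12769664 on the minus strand, and the antisense RNA gene Airn begins inside it without sharing exons. Igf2r was at 356, 399 and 389.6 CPM in EV, at 571, 592 and 541 CPM with TFE3 and at 640.2, 497 and 411 CPM with YAP-TFE3. All libraries of both groups were above the EV range. The rise was 0.57 ± 0.14 on the log2 scale for TFE3 (edgeR, adjusted p = 0.0228) and 0.44 ± 0.14 for YAP-TFE3 (edgeR, adjusted p = 0.0351). The TFE3 call was lost when any single EV or TFE3 library was left out (edgeR, adjusted p = 0.0526 to 0.104). The YAP-TFE3 call was lost without any single library except YAP-TFE3 replicate 3, and without YAP-TFE3 replicate 1 the value was 0.22 (edgeR, adjusted p = 0.403). TAZ-CAMTA1 libraries (437, 414 and 537 CPM) also lay above EV without passing the test (log2 fold change 0.28, 95% interval -0.01 to 0.56). The remaining groups held between 277 and 420.3 CPM. The ratio of Igf2r to Igf1r per length was 9.90 ± 0.586 in EV and 16.6 ± 1.43 in TFE3 (n = 3 each), and in TAZ4SA it was 5.49 ± 1.14.

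The sequence before the Igf2r start is shown because Igf2r was the receptor gene that changed with TFE3, a factor of the MiT/TFE family that is known to bind the E-box CACGTG. The 250 bases before the start in RefSeq (GRCm38.p6, chr17:12769707-12769956, minus strand) hold the extended letters TCACGTGA at 2 places, in capitals, each containing CACGTG.
Igf2r: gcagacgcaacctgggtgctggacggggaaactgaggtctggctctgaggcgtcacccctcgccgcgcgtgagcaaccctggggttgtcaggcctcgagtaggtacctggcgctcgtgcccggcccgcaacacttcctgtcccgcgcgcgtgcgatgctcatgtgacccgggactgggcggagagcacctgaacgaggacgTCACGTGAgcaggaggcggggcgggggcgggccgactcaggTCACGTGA
The matches begin 49 and 8 bases before the start. Of 32851 RefSeq windows of this length, 0.785% held TCACGTGA on either strand, 0.0335% held it at 2 or more places, and 6.02% held CACGTG. All 10 genes had a window, with 14 windows in all, and TCACGTGA was present in 1 of them. The shorter E-box letters were present in 2 of the 14, the Igf2r window and a window of Igfbp2, which was near 0 in every group. The Igfbp5 window held no E-box, although Igfbp5 had the largest rise with TFE3 of the 8 tested genes (3.83 on the log2 scale). A link between these letters and the response to TFE3 was not tested. CATTCC, the letters of the TEAD site, was searched on both strands as well and occurred in 4 of the 14 windows and in 12.6% of all windows. It stood in 3 of the 4 Igf2 windows and in the Igfbp5 window, of which stretches around the match are shown, with the motif in capitals, because these genes differed most among the groups.
Igf2, 218 bases before the start: aataattttcctCATTCCccaacttggatt
Igf2, 112 bases before the start: ctttgggccgctCATTCCcaggaccgcaaa
Igfbp5, 233 bases before the start: gccctttccgtaCATTCCgtgaggaggagg
The Igf2 stretches come from 1 window (chr7:142661272-142661521, minus strand) and the Igfbp5 stretch from chr1:72874866-72875115, minus strand. The AP-1 letters TGAGTCA, searched on both strands, occurred in 4.46% of all windows and, among the 14, in an Igfbp2 window. These matches are letters only, since no binding was measured here.

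Igfbp4, whose protein is cleaved by the pappalysin PAPP-A, lies on chromosome 11 from 99041244 to 99054392. EV libraries held 4.05, 13.4 and 3.85 CPM, so that replicate 2 was more than 3-fold above the others. TAZ4SA libraries had 30.9, 31.5 and 40.5 CPM, TAZ-CAMTA1 libraries 24.4, 27.6 and 32.0 CPM, and YAP-TFE3 libraries 22.2, 19.8 and 16.3 CPM. All 9 of these exceeded every EV library. The rises over EV were 2.29 ± 0.35, 1.99 ± 0.34 and 1.46 ± 0.34 on the log2 scale (edgeR, adjusted p = 8.77e-06, 0.000195 and 0.0044). YAP5SA libraries, at 9.75, 12.1 and 10.7 CPM, lay below EV replicate 2 and above the others. Their difference of 0.62 ± 0.35 did not pass the test (edgeR, adjusted p = 0.112) and became 1.46 without EV replicate 2 (edgeR, adjusted p = 0.000121). TFE3 had the lowest mean, with libraries between 3.10 and 3.92 CPM that overlapped EV (log2 fold change -0.96 ± 0.36; edgeR, adjusted p = 0.185).

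Igfbp5 had the widest range of the 8 tested genes. Its protein binds extracellular matrix as well as IGFs and is a substrate of the pappalysin PAPP-A2. The gene lies on chromosome 1 from 72857932 to 72874884 on the minus strand, 5457 bases from the end of Igfbp2, which was near 0 throughout. Igfbp5 was at 4.35, 12.3 and 6.41 CPM in EV and at 93.0, 129.8 and 105 CPM with TFE3. The TFE3 libraries exceeded all others in the data, and the rise was 3.83 ± 0.37 on the log2 scale (14.2-fold; edgeR, adjusted p = 2.47e-06). TAZ-CAMTA1 libraries held 55.6, 29.0 and 35.7 CPM, above all EV libraries, a rise of 2.39 ± 0.35 (edgeR, adjusted p = 3.15e-05). With YAP-TFE3 the libraries were at 29.1, 20.4 and 11.3 CPM. The last of these lay within the EV range, the difference was 1.40 ± 0.35 (edgeR, adjusted p = 0.00684), and it did not pass without YAP-TFE3 replicate 1 (1.03, edgeR adjusted p = 0.0902) or EV replicate 1 (1.11, edgeR adjusted p = 0.0546).

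Igfbp5 was close to 0 with the hyperactive full-length proteins. TAZ4SA libraries held 11, 4 and 7 counts (0.546, 0.300 and 0.308 CPM) and YAP5SA libraries 1, 0 and 0 counts. Both were below every EV library, which held 103, 258 and 145 counts (edgeR, adjusted p = 7.84e-07 and 2.05e-08). Summed over the 3 libraries of a group and scaled by depth, EV was 19.2 times TAZ4SA (95% interval 12.6 to 31.0) and 419 times YAP5SA (95% interval 74.8 to 16574), where the exact intervals cover counting error only. The fitted log2 fold change of -8.36 for YAP5SA depends on the prior count and is no bound. Sub-confluent cells were also near 0, with 0, 10 and 2 counts in EVsub and 2, 0 and 1 in CAMTA1. EV exceeded EVsub by 46.2 times in the summed counts (95% interval 26.2 to 90.0), a log2 fold change of -5.52 ± 0.59 for EVsub against EV (edgeR, adjusted p = 2.51e-06). CAMTA1 and EVsub did not pass the test (edgeR, adjusted p = 0.473). Their summed counts, 12 in EVsub and 3 in CAMTA1, gave a ratio of 4.40 (95% interval 1.19 to 24.3, counting error only), and 10 of the 12 came from EVsub replicate 2.

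Igfbp6 encodes the binding protein with a known preference for IGF-II and had the highest level per length of the 10 genes in every group except TFE3, where Igf2r was higher (61.0 against 54.2 CPM per kb). It lies on chromosome 15 from 102144362 to 102149511. The EV libraries held 91.9, 116 and 88.6 CPM. TAZ-CAMTA1 libraries had 449.8, 505 and 459.7 CPM, YAP5SA libraries 492, 562 and 445 CPM, YAP-TFE3 libraries 460.4, 276 and 322 CPM, and TAZ4SA libraries 216, 318 and 217 CPM. All 12 were above every EV library. The rises were 2.25 ± 0.19 with TAZ-CAMTA1, 2.34 ± 0.20 with YAP5SA, 1.83 ± 0.19 with YAP-TFE3 and 1.34 ± 0.19 with TAZ4SA on the log2 scale (edgeR, largest adjusted p = 3.88e-06). Igfbp6 was the tested binding protein gene that rose with both fusion proteins and both hyperactive proteins. EVsub libraries (178, 219.8 and 153 CPM) were above EV as well, by 0.89 ± 0.19 (edgeR, adjusted p = 0.00172). TFE3 libraries, at 68.7, 60.2 and 52.0 CPM, were below all EV libraries. The log2 fold change of -0.71 ± 0.19 passed narrowly (edgeR, adjusted p = 0.0366) and did not pass without any single EV or TFE3 library (edgeR, adjusted p = 0.0522 to 0.211).

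Igfbp7 encodes a secreted protein that binds IGFs with low affinity and is found in the matrix around vessels. The gene lies on chromosome 5 from 77349240 to 77408041 on the minus strand, and its last exon overlaps the end of Polr2b on the other strand, so a share of its reads may be uncertain. The EV libraries held 28.3, 30.9 and 27.2 CPM, YAP-TFE3 libraries 134, 96.6 and 93.5 CPM, and TAZ-CAMTA1 libraries 97.4, 85.1 and 74.3 CPM. Both fusion protein groups lay above EV, with log2 fold changes of 1.91 ± 0.25 and 1.57 ± 0.25 (edgeR, adjusted p = 1.21e-05 and 7.63e-05). YAP5SA libraries were below, at 18.0, 14.2 and 14.7 CPM (log2 fold change -0.88 ± 0.26; edgeR, adjusted p = 0.00393). TAZ4SA libraries, at 27.4, 35.9 and 31.4 CPM, overlapped EV (log2 fold change 0.13, 95% interval -0.39 to 0.64). In sub-confluent cells Igfbp7 was higher, at 63.2, 113 and 51.5 CPM in EVsub (log2 fold change 1.40 ± 0.25; edgeR, adjusted p = 0.000386), and CAMTA1 libraries (128, 78.8 and 58.6 CPM) overlapped EVsub.

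Summed per length, the 6 binding protein genes reached 116 ± 17.0 CPM per kb in EV (SD, n = 3). The sum was 508 ± 24.8 with TAZ-CAMTA1, 465 ± 52.8 with YAP5SA and 414 ± 106 with YAP-TFE3. TAZ4SA followed at 259 ± 55.6, with CAMTA1 at 268 ± 6.55 and EVsub at 230.0 ± 56.6 CPM per kb, and every library of these groups was above the EV maximum of 135. TFE3 libraries, at 94.8 ± 6.59, were below the EV minimum of 104. Igfbp6 made up 76.9% ± 0.444 of the sum in EV, 83.5% ± 2.21 with TAZ-CAMTA1 and 96.7% ± 0.491 with YAP5SA. In YAP5SA cells Igfbp7 held 2.81% ± 0.502, against 20.7% ± 1.61 in EV. With TFE3, Igfbp5 took 19.2% ± 3.38, against 1.07% ± 0.424 in EV, and Igfbp6 held 57.0% ± 4.37. These shares are descriptions of mRNA per length and were not tested.

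**Figure D3:**
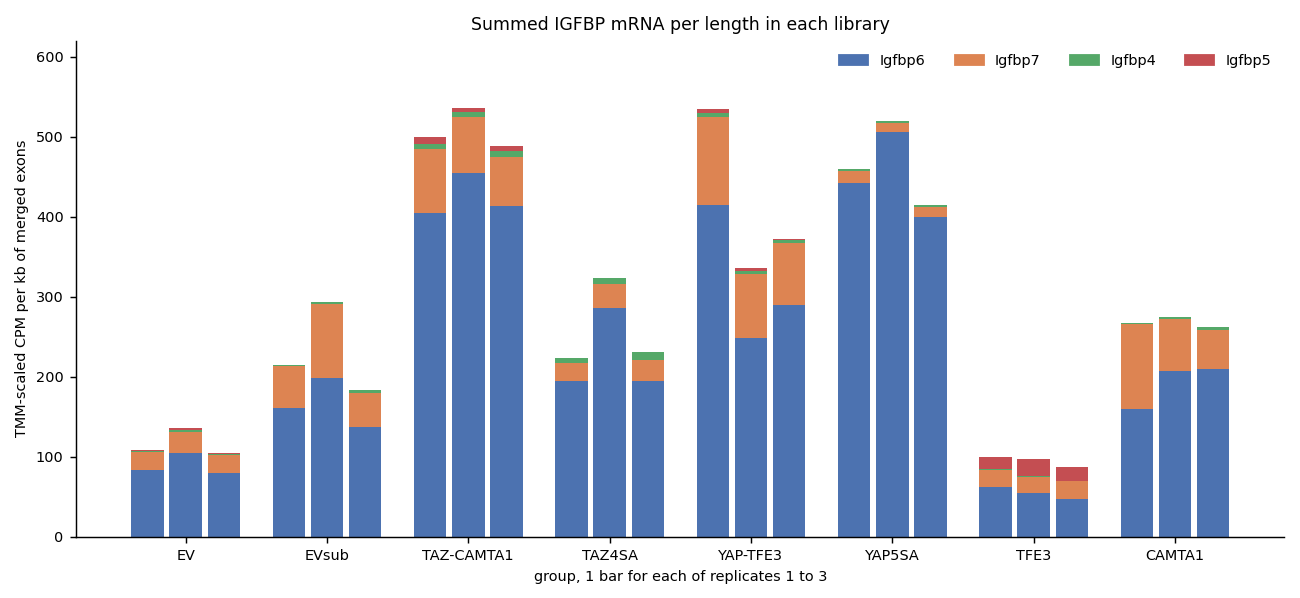
Stacked TMM-scaled CPM per kb of merged exons for Igfbp6, Igfbp7, Igfbp4 and Igfbp5, with 1 bar per library in the order of replicates 1 to 3 (Igfbp2 and Igfbp3 are too low to see). TAZ-CAMTA1 and YAP5SA reach similar sums (488 to 536 and 415 to 519.8 CPM per kb), but Igfbp7 is a broad part of the former and a thin one of the latter, and Igfbp5 is a broad part in TFE3.

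The counts of changed genes were read against all genes tested in each comparison. TAZ-CAMTA1 changed 5 of the 8 tested genes against EV, all upwards (Igf1, Igfbp4, Igfbp5, Igfbp6 and Igfbp7). Of all genes, 21.5% were called there, 12.5% higher and 8.98% lower, and the libraries of 6 of the 8 and of 45.5% of all genes did not overlap. YAP-TFE3 changed 6, with 5 higher (Igf2r, Igfbp4, Igfbp5, Igfbp6 and Igfbp7) and Igf2 lower. Of all genes, 15.3% were called, 10.6% higher and 4.74% lower, and 5 of the 8 and 36.6% of all genes did not overlap. No fit with 1 library left out called 6, since 4 were called without EV replicate 1 or 2 or YAP-TFE3 replicate 1 or 2, and 5 without replicate 3 of either group. YAP5SA changed 6, with Igf2, Igf1r and Igfbp6 higher and Igf1, Igfbp5 and Igfbp7 lower. Of all genes, 71.2% were called, 36.3% higher and 34.9% lower, a share close to that among the 8, and 6 of the 8 and 75.5% of all genes did not overlap. TAZ4SA changed 4, with Igf1r, Igfbp4 and Igfbp6 higher and Igfbp5 lower. Of all genes, 57.5% were called, 31.1% higher and 26.4% lower, and 4 of the 8 and 56.0% of all genes did not overlap.

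TFE3 changed 3 of the 8, with Igf2r and Igfbp5 higher and Igfbp6 lower. Of all genes, 3.37% were called, 2.35% higher and 1.02% lower, and 4 of the 8 and 31.0% of all genes did not overlap. When any single EV or TFE3 library was left out, 1 gene was called, Igfbp5. EVsub against EV changed 4, with Igfbp6 and Igfbp7 higher and Igf2 and Igfbp5 lower. Of all genes, 22.1% were called, 12.5% higher and 9.59% lower, and 6 of the 8 and 35.9% of all genes did not overlap. CAMTA1 changed 0 of the 8 against EVsub by edgeR, where 2.18% of all genes were called, 1.29% higher and 0.891% lower, and where 2 of the 8 and 23.8% of all genes did not overlap. There, 2 genes had an unadjusted p under 0.05 (Igf2 and Igf1r), and DESeq2 called 1 (Igf2).

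The median log2 fold change of the 8 tested genes was 1.78 for TAZ-CAMTA1 and 0.92 for YAP-TFE3, beside medians of -0.00 and 0.00 over all genes tested. For TAZ4SA it was 0.38 and for YAP5SA 0.27, beside 0.05 and 0.01. TFE3 and EVsub had medians of -0.15 and -0.26, beside -0.02 and 0.02. These comparisons share the EV libraries. EV replicate 2 was the highest of the 3 EV libraries for all 8 genes, against 39.6% of all genes tested, and YAP-TFE3 replicate 1 was the highest of its group for all 8, against 34.6%. In EV replicate 2 the adipocyte-associated gene Lpl stood at 848 CPM, beside 173 and 251 CPM in replicates 1 and 3. Lpl made up nearly all of the sum of the 5 adipocyte markers in replicate 2 (849 CPM). The adipocyte gene Plin1 had at most 3 counts in any library. The part of either library in the results was not tested beyond the values without it.

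**Figure D4:**
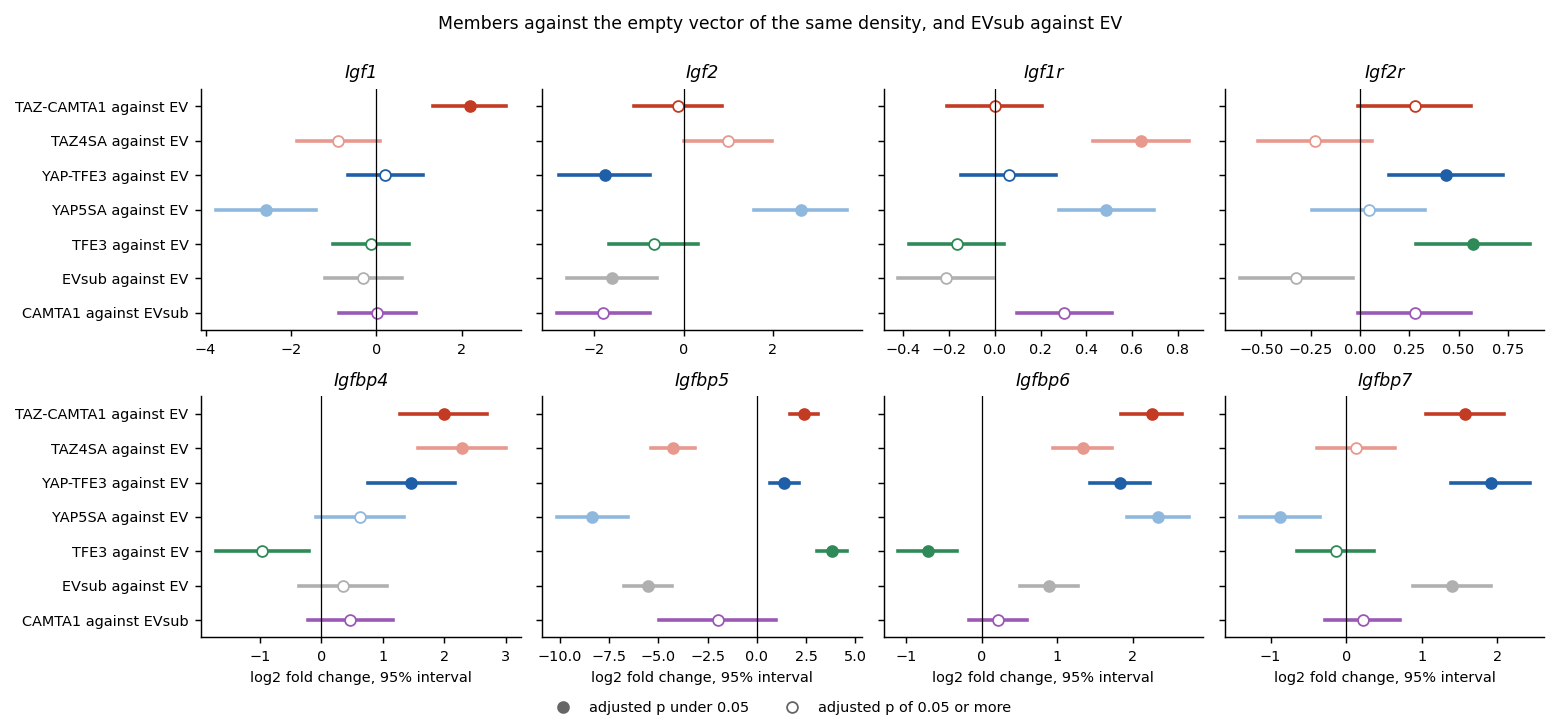
Log2 fold changes (points) with 95% intervals (bars) of the 8 tested genes in the 7 comparisons with an empty vector, filled where the adjusted p was under 0.05; each panel has its own horizontal scale. Igfbp6 is to the right of 0 for TAZ-CAMTA1, TAZ4SA, YAP-TFE3 and YAP5SA, whereas Igfbp5 and Igfbp7 are right of 0 for both fusion proteins and left of 0 for YAP5SA.

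Direct comparisons tested whether a fusion protein and the hyperactive form of its own TAZ or YAP part differed. TAZ-CAMTA1 differed from TAZ4SA in 6 of the 8 tested genes, where 54.7% of all genes were called, 26.6% higher and 28.1% lower. The libraries of 7 of the 8 and of 55.2% of all genes did not overlap. Igf1 was higher by 3.07 ± 0.45, Igfbp7 by 1.44 ± 0.25, Igfbp6 by 0.91 ± 0.19 and Igf2r by 0.51 ± 0.14 on the log2 scale with TAZ-CAMTA1, and Igf1r was lower (log2 fold change -0.64 ± 0.10; edgeR, largest adjusted p of these 0.0041). Igfbp5 showed the widest gap, with summed counts 104 times higher with TAZ-CAMTA1 (95% interval 68.4 to 166). Igfbp4 did not pass (log2 fold change -0.30, 95% interval -0.96 to 0.37), so a difference of up to 0.96 in favour of TAZ4SA remains possible. Igf2 missed the threshold although its libraries did not overlap (log2 fold change -1.13 ± 0.48, edgeR adjusted p = 0.0521). It passed without TAZ4SA replicate 3 (-1.43, edgeR adjusted p = 0.0168) and with only those groups in the fit (-1.10, edgeR adjusted p = 0.022). Without a filter on low counts it passed as well (-1.09, edgeR adjusted p = 0.00119).

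YAP-TFE3 differed from YAP5SA in 8 of the 8 tested genes, where 70.9% of all genes were called, 36.4% higher and 34.5% lower. The libraries of 6 of the 8 and of 75.2% of all genes did not overlap. Igf2 was lower with YAP-TFE3 (log2 fold change -4.39 ± 0.55; edgeR, adjusted p = 3.06e-07), as were Igfbp6 (-0.50 ± 0.19) and Igf1r (-0.43 ± 0.10). The Igfbp6 and Igf1r differences did not pass without TMM factors, at -0.15 and -0.07, where the median of all genes moved to 0.41. Igf1 was higher by 2.80 ± 0.56, Igfbp7 by 2.79 ± 0.26, Igfbp4 by 0.84 ± 0.33 and Igf2r by 0.39 ± 0.14. No fit with 1 library left out called all 8 (6 to 7 were called). Igfbp4 did not pass in 4 of these 6 fits (edgeR, adjusted p = 0.0601 to 0.0878), Igfbp6 in 3 (edgeR, adjusted p = 0.0716 to 0.123) and Igf2r without YAP5SA replicate 3 or YAP-TFE3 replicate 1 (0.35 and 0.22; edgeR, adjusted p = 0.0569 and 0.138). Igfbp5 held 1457 counts in the YAP-TFE3 libraries together and 1 in the YAP5SA libraries, a ratio of 1105 after scaling by depth (95% interval 198 to 43684).

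Between the fusion proteins, 2 of the 8 tested genes differed, where 11.6% of all genes were called, 5.32% higher and 6.32% lower. The libraries of 3 of the 8 and of 37.1% of all genes did not overlap. Both were ligand genes and both were higher with TAZ-CAMTA1, Igf1 by 1.98 ± 0.40 (edgeR, adjusted p = 0.00223) and Igf2 by 1.64 ± 0.49 (edgeR, adjusted p = 0.0318) on the log2 scale. The Igf2 call was lost without replicate 2 or 3 of either group. Without YAP-TFE3 replicate 1, Igfbp5 and Igfbp6 also passed and the count was 4. Igf1r (95% interval -0.27 to 0.15), Igf2r (-0.44 to 0.13) and Igfbp7 (-0.83 to 0.16) did not pass. Between the hyperactive proteins, 6 of the 8 differed, where 42.4% of all genes were called, 22.8% higher and 19.6% lower. The libraries of 5 of the 8 and of 40.8% of all genes did not overlap. With TAZ4SA, Igf1, Igfbp4, Igfbp5 and Igfbp7 were higher than with YAP5SA and Igf2 and Igfbp6 were lower, and with 1 library left out 3 to 6 were called. The Igfbp5 difference rests on 22 counts against 1 and did not pass in any of these fits (edgeR, adjusted p = 0.0509 to 0.123). Igf1 did not pass without TAZ4SA replicate 3 (0.53; edgeR, adjusted p = 0.585), YAP5SA replicate 1 (1.32; edgeR, adjusted p = 0.13) or YAP5SA replicate 2 (1.89; edgeR, adjusted p = 0.0511), nor Igf2 without TAZ4SA replicate 3 (-1.33; edgeR, adjusted p = 0.0572).

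Of 51 other IGF pathway genes, 41 were tested. The insulin genes Ins1 and Ins2 and the liver gene Igfbp1 were near 0, as was Igfals, a serum carrier of IGF complexes, with 31 counts in all libraries. Against EV, TAZ-CAMTA1 changed 17 of the 41 (5 higher and 12 lower), YAP-TFE3 changed 10 (4 and 6), TAZ4SA changed 32 (15 and 17) and YAP5SA changed 34 (14 and 20). These are 41.5%, 24.4%, 78.0% and 82.9% of the 41, beside 21.5%, 15.3%, 57.5% and 71.2% of all genes. EVsub changed 16 (4 and 12), which is 39.0% of the 41 beside 22.1% of all genes. TFE3 changed 3 (2 and 1), 7.32% beside 3.37%. Against EVsub, CAMTA1 changed 1, 2.44% beside 2.18% of all genes. This gene was Adam12, a protease that cleaves binding proteins (log2 fold change -1.25 ± 0.22; edgeR, adjusted p = 0.00379).

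Among receptors and adaptors, 4 of 6 tested genes were lower with TAZ-CAMTA1 and none were higher. Of all genes, 8.98% were called lower there and 12.5% higher. With YAP-TFE3 and in EVsub, 2 of the 6 were lower and 1 was higher. Of all genes, 4.74% and 9.59% were called lower in these comparisons, and 10.6% and 12.5% higher. Irs1, the docking protein downstream of the receptor, was at 55.1, 62.4 and 65.5 CPM in EV and at 30.4, 29.7 and 25.4 CPM with TAZ-CAMTA1. No libraries overlapped, and the log2 fold change was -1.10 ± 0.20 (edgeR, adjusted p = 0.000416). Irs1 also fell with YAP5SA (-1.67 ± 0.21), YAP-TFE3 (-0.67 ± 0.20) and TAZ4SA (-0.57 ± 0.20), and in EVsub (-0.96 ± 0.20). TAZ4SA replicate 3, at 59.8 CPM, lay within the EV range. The TFE3 libraries of Irs1, at 40.6, 38.9 and 35.7 CPM, were below all EV libraries without passing the test. Irs2, a docking protein of the same family, rose with YAP5SA (1.43 ± 0.14) and TAZ4SA (0.86 ± 0.14). Grb14, an adaptor that restrains insulin receptor signalling, was at 17.5, 25.8 and 15.4 CPM in EV and at 136, 129 and 150.1 CPM with YAP5SA. It rose with YAP5SA (2.82 ± 0.20) and TAZ4SA (1.20 ± 0.20) and fell with TAZ-CAMTA1 (-0.82 ± 0.20).

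The proteases that act on binding proteins changed in both directions. Pappa2 was at 57.9, 48.0 and 63.5 CPM in EV, at 228, 282 and 290.3 CPM with TAZ4SA and at 5.54, 5.15 and 3.93 CPM with YAP5SA. Neither group overlapped EV, and the log2 fold changes of 2.24 ± 0.27 and -3.52 ± 0.30 had opposite signs (edgeR, adjusted p = 3.72e-07 and 1.16e-09). Between the hyperactive proteins the difference in Pappa2 was 5.76 ± 0.32 (edgeR, adjusted p = 7.5e-11). The EVsub libraries of Pappa2, at 13.3, 10.2 and 30.4 CPM, were below all EV libraries. Pappa, whose protein cleaves IGFBP4, fell with TAZ-CAMTA1 (-0.73 ± 0.23), TAZ4SA (-1.43 ± 0.23) and YAP5SA (-2.05 ± 0.24), and in EVsub (-1.41 ± 0.23). Its EV libraries held 159, 221 and 197 CPM. With TFE3, the libraries of Pappa (307, 314 and 314 CPM) and Pappa2 (104, 107 and 120 CPM) were above all EV libraries. Of the 5 tested protease and inhibitor genes, 1 was called higher with TFE3 and 1 lower, beside 2.35% and 1.02% of all genes. Stc2, an inhibitor of pappalysins, rose with TAZ-CAMTA1 (1.11 ± 0.26), TAZ4SA (0.84 ± 0.26), YAP-TFE3 (1.26 ± 0.26) and YAP5SA (2.82 ± 0.26). Its EV libraries stood at 3.88, 9.45 and 4.51 CPM and its YAP5SA libraries at 51.1, 34.3 and 40.5 CPM. The EVsub libraries of Stc2, at 11.1, 11.4 and 9.93 CPM, were above all EV libraries as well. Htra1, a secreted serine protease, rose with the same 4 proteins as Stc2, by 0.62 to 1.72 on the log2 scale, and fell with TFE3 (-0.60 ± 0.15).

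Among regulators and imprinted genes, Plagl1, a zinc finger transcription factor gene, was at 18.0, 21.5 and 18.1 CPM in EV. It was at 46.5, 34.4 and 41.6 CPM with TAZ-CAMTA1, at 41.1, 36.9 and 30.2 CPM with YAP-TFE3 and at 1.03, 0.785 and 1.46 CPM with YAP5SA. All differed from EV, by 1.09 ± 0.25, 0.91 ± 0.25 and -4.16 ± 0.33 on the log2 scale (edgeR, largest adjusted p = 0.0149). Hmga2, an architectural chromatin protein gene, fell with TAZ4SA (-1.92 ± 0.25) and YAP5SA (-3.02 ± 0.26). Igf2bp1, which encodes a protein that binds the Igf2 mRNA, rose with TAZ-CAMTA1 (0.99 ± 0.10), TAZ4SA (1.01 ± 0.10) and YAP5SA (1.57 ± 0.10). Airn, the antisense partner of Igf2r, passed against EV with YAP5SA (-0.75 ± 0.24; edgeR, adjusted p = 0.00953) at 2.00 ± 0.143 CPM (SD, n = 3), while Igf2r did not.

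Downstream of the receptor, 15 of 20 PI3K-AKT genes were called with TAZ4SA and 16 with YAP5SA, in both directions, against 5 with TAZ-CAMTA1 and 2 with YAP-TFE3. These shares of 75%, 80%, 25% and 10% stand beside 57.5%, 71.2%, 21.5% and 15.3% of all genes in the same comparisons. Pik3r1, a regulatory subunit of PI3K, was at 157, 208 and 188 CPM in EV and at 20.6, 22.6 and 20.0 CPM with YAP5SA (log2 fold change -3.13 ± 0.18; edgeR, adjusted p = 4.52e-12). With TAZ4SA the fall was 2.22 on the log2 scale (-2.22 ± 0.17), and with YAP-TFE3 the libraries, at 260.1, 261 and 218 CPM, were above EV without passing the test. Pik3r3, another regulatory subunit, fell with both fusion proteins (-1.18 ± 0.17 and -1.03 ± 0.17) and both hyperactive proteins (-1.91 ± 0.18 and -2.23 ± 0.18). The catalytic subunit gene Pik3cb and the translation repressor gene Eif4ebp1 rose with YAP5SA (1.79 ± 0.15 and 1.68 ± 0.14). Foxo1, a transcription factor held back by AKT, fell with YAP5SA (-1.14 ± 0.12) and TAZ4SA (-0.84 ± 0.12), while Foxo3 rose (1.09 ± 0.15 and 0.95 ± 0.15).

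**Figure D5:**
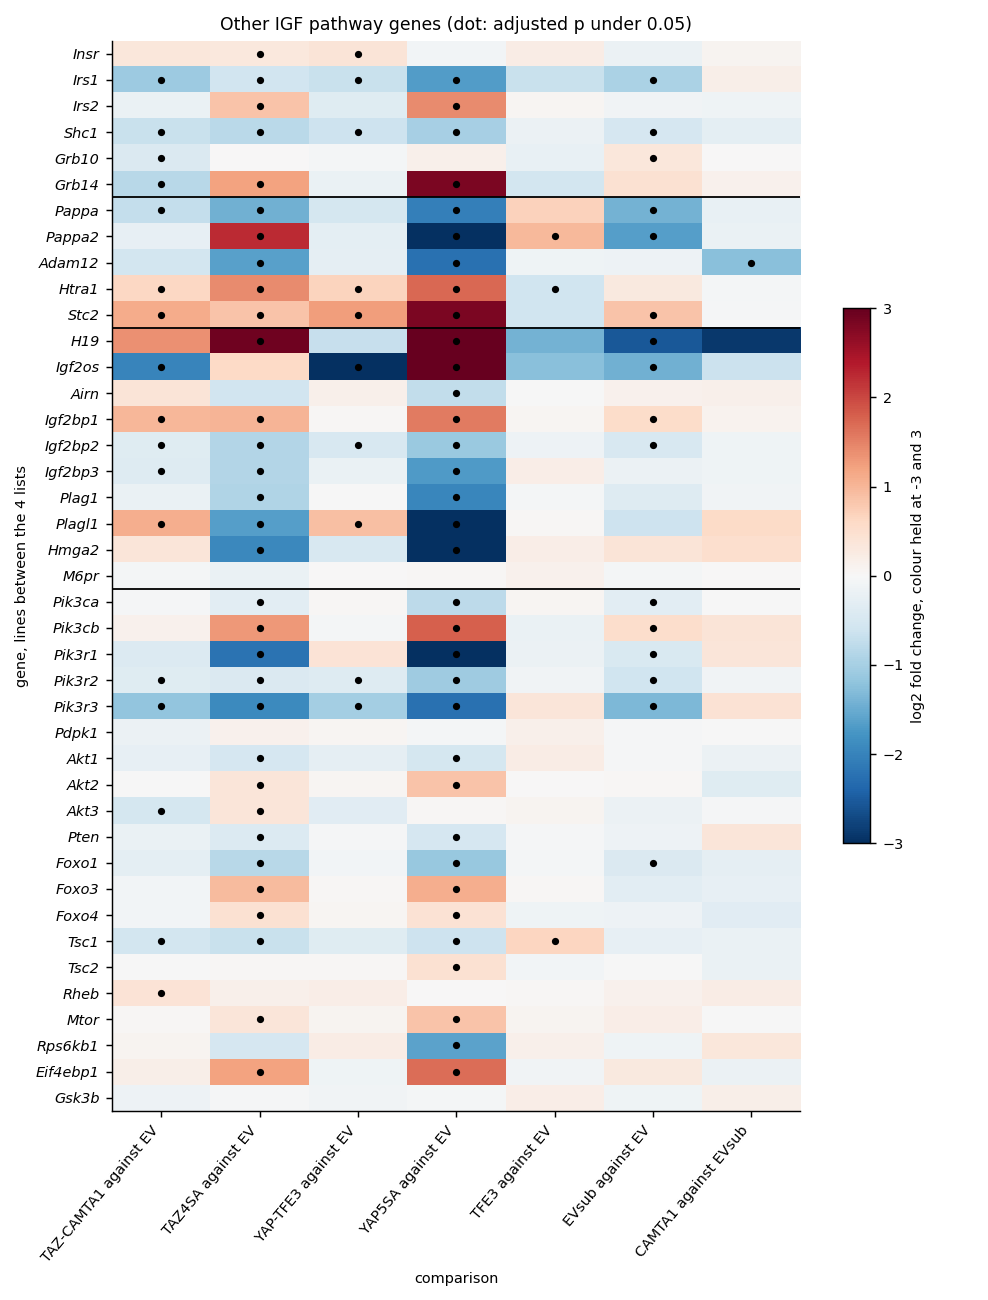
Log2 fold changes of the 41 tested pathway genes (rows, in 4 lists separated by lines) in the 7 comparisons with an empty vector (columns), with colour held at -3 and 3 and a dot where the adjusted p was under 0.05. The YAP5SA and TAZ4SA columns hold 34 and 32 dots, and the TFE3 and CAMTA1 columns 3 and 1.

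The genes whose log2 CPM was most correlated with each tested gene over the 24 libraries were listed as a description, since the libraries share 8 groups. For Igf1 they were Clvs1 and Twist1 (Pearson r = 0.902 and 0.901), and for Igf1r Prss23 and Rb1 (0.936 and 0.917). Igf2r was followed by Optn, an autophagy receptor gene, and Man2b1, which encodes a lysosomal mannosidase (0.882 and 0.855). Igfbp4 had Ccl9 and Vldlr (0.918 and 0.917), Igfbp5 had Zfp651 and Rnase4 (0.921 and 0.92), and Igfbp7 had Ptgs1 and the smooth muscle actin gene Acta2 (0.908 and 0.907). Igfbp6 had Tent5b and Gm7665, a processed pseudogene whose reads may be shared with its parent gene (0.962 and 0.959). Among the 8 tested genes themselves, the highest correlations were between Igf2r and Igfbp5 (0.767) and between Igfbp4 and Igfbp6 (0.734), and the lowest was between Igf2 and Igfbp7 (-0.723).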

How the data were processed

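RNA-Seq counts of 24 NIH 3T3 libraries were analysed, 3 in each of 8 groups taken from the labels. The files the authors deposited hold unnormalized read counts for each Ensembl gene identifier. According to the study's methods, polyadenylated RNA was sequenced as stranded 75 bp paired-end libraries and processed with bcbio-nextgen 1.0.8 and Hisat2 on mm10, and reads were also quantified with Salmon and summarized to gene counts with tximport. Which route gave the deposited counts, and any strand setting, are not given in the sources used here. YAP-TFE3 replicate 3 was numbered by its title, since its description conflicts.

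Identifiers were matched to GENCODE M21 (GRCm38), which named 37693 of 39017. TMM scaling and the quasi-likelihood test used edgeR 4.0.16 (R 4.3.3) with all libraries in one fit, after requiring a mean count of 5 (14361 genes), and a call was a Benjamini-Hochberg adjusted p under 0.05 over these genes. SE was the absolute log2 fold change divided by the root of F. Count ratios used summed counts and exact 95% binomial intervals. Alternatives were RLE factors, library totals, filters of no counts and of 10 counts in every library, DESeq2 1.42.0, fits of only the groups compared, a replicate block and each library left out. The model was tested on simulated counts. Tables and figures used Python 3.11.15, pandas 2.3.3, scipy 1.17.1 and matplotlib 3.10.9.

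All 10 genes were named, and a pathway gene where it was called with a log2 fold change of 1 or more in size against an empty vector, or neighbours one of the 10; of other genes, the 2 with the highest correlation to each. Genes and lists were chosen with earlier results of these data known. P-values measure the spread between transductions of 1 line, and depth limits genes with few counts.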

Additional observations from a re-analysis of the deposited data

Results flagged for a closer look

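For 4 results the effects of a fusion protein and of the hyperactive form of its TAZ or YAP part had opposite signs against EV, and the direct comparison passed the edgeR test. Igfbp5 was higher with TAZ-CAMTA1 and lower with TAZ4SA, a difference of 6.66 on the log2 scale (TAZ-CAMTA1 against TAZ4SA). It was also higher with YAP-TFE3 and lower with YAP5SA, a difference of 9.76 that rests on 1 count in the YAP5SA libraries and is no measure of size. Igf2 fell with YAP-TFE3 and rose with YAP5SA, a difference of -4.39 (YAP-TFE3 against YAP5SA). Igfbp7 rose with YAP-TFE3 and fell with YAP5SA, a difference of 2.79. Each passed under every alternative tried for the direct comparison in which it was tested. The calls of YAP-TFE3 against EV were less stable. That of Igf2 was lost without EV replicate 2 or YAP-TFE3 replicate 2 or 3. That of Igfbp5 was lost without EV replicate 1 or YAP-TFE3 replicate 1. It was also lost with only those groups in the fit (edgeR, adjusted p = 0.0519).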

How the results depend on the processing

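Of the 50 calls among the 88 values of the 8 tested genes in 11 comparisons, 35 were called in every alternative in which the gene was tested. Of 1122 alternative values, 1038 kept their direction and their side of the threshold. With library totals in place of TMM factors, Igf2r in YAP5SA against EV turned to -0.33, and the split of all calls shifted from 5208 higher and 5012 lower to 3565 and 6775. For TAZ4SA against EV it shifted from 4465 and 3788 to 3422 and 4749, for TAZ-CAMTA1 against TAZ4SA from 3813 and 4041 to 4818 and 2948, for YAP-TFE3 against YAP5SA from 5230 and 4954 to 7064 and 3387, and for TAZ4SA against YAP5SA from 3274 and 2813 to 4785 and 1806. With 10 counts required in every library, 3 of the tested genes were called for TAZ-CAMTA1 against EV and 1 for TAZ-CAMTA1 against YAP-TFE3, since Igf1 and Igfbp5 were then not tested. For CAMTA1 against EVsub, 1 was called without a filter and 1 by DESeq2. Without a filter, further calls were Igf1 and Igf2 for TAZ4SA against EV, and Igfbp4 for YAP5SA and for TFE3 against EV. Igf2 for TAZ-CAMTA1 against TAZ4SA and Igfbp5 for TAZ-CAMTA1 against YAP-TFE3 were also gained then (edgeR, largest adjusted p of these 0.0374). Of the pathway genes, TFE3 against EV called 1 with library totals, 6 without a filter, 8 with only those groups in the fit and 5 by DESeq2. CAMTA1 against EVsub called 2 without a filter, 0 by edgeR with only those groups in the fit and 3 by DESeq2, and EVsub against EV called 7 with only those groups in the fit. Over all genes, TFE3 against EV called 1512 with only those groups in the fit and 484 with all groups. The cause of these shifts was not tested.

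With 1 library left out at a time, the tested genes called numbered 5 for TAZ-CAMTA1, 4 to 6 for TAZ4SA, 4 to 5 for YAP-TFE3, 6 to 7 for YAP5SA, 1 for TFE3, 3 to 4 for EVsub and 0 to 1 for CAMTA1. They numbered 6 to 7 for TAZ-CAMTA1 against TAZ4SA, 6 to 7 for YAP-TFE3 against YAP5SA, 1 to 4 for TAZ-CAMTA1 against YAP-TFE3 and 3 to 6 for TAZ4SA against YAP5SA. The pathway genes called numbered 6 to 11 for YAP-TFE3, 1 to 2 for TFE3, 10 to 18 for EVsub, 1 to 3 for CAMTA1 and 3 to 6 for TAZ-CAMTA1 against YAP-TFE3. Igfbp7 in CAMTA1 against EVsub ranged from -0.15 to 0.62, Igfbp4 in EVsub against EV from -0.026 to 1.18, and Igf2r in TAZ-CAMTA1 against YAP-TFE3 from -0.30 to 0.022. Between 0 and 2 genes changed place in the order of levels in EV. In no comparison did all 3 pairs of same-numbered libraries correlate above 0.1. For CAMTA1 against EVsub, however, the pairs of replicates 1 and 3 correlated at 0.252 and 0.410, and that of replicate 2 at -0.00246. Whether same-numbered libraries share more than a number was not tested. A replicate block made Igfbp5 pass for TAZ-CAMTA1 against YAP-TFE3 (1.04, edgeR adjusted p = 0.0403) and changed no other call among the tested genes. Depth limits Igfbp2, Igfbp3 and the groups in which Igfbp5 was near 0.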
